A study of Mus musculus with 24 samples.

Results

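The ovaries of 3 female C57BL/6J mice aged 18 months were compared with those of 3 mice aged 3 months, across all genes of the deposited read count table. These are 6 of the 24 libraries of the series. They were picked by their age label, with earlier results of these data known. The other 18 libraries are natural aging mice at 6, 9, 12 and 25 months and ABT263-treated mice of 6 and 9 months, ABT263 being a senolytic drug. Every one of the 8 groups has 3 mice. The mice of the natural aging series that are used here were wild type, carried no transgene, and are labelled with no treatment. In the study, the age series served to relate senescence to aging of the ovary. Each library was made from the mRNA of a homogenized whole ovary. The labels give no estrous stage, litter or collection date, so age cannot be told apart from any difference between the cohorts in which the mice were kept or the libraries made. In a whole organ, fewer cells of a type and less RNA per cell cannot be told apart either.

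The mouse ovary holds a fixed stock of oocytes, each enclosed in a follicle of granulosa cells, with theca cells outside. Follicles leave the stock throughout adult life, by growth and ovulation or by atresia. Between follicles and corpora lutea lies a stroma of fibroblasts, vessels and immune cells, in which macrophages are the most common leukocytes. In old ovaries, the stroma is known for lipofuscin-laden macrophages that fuse into multinucleated giant cells.

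The 3-month libraries held 20029940, 18371745 and 19697122 counts, and the 18-month libraries 16439137, 19632508 and 17822064. Levels are given as CPM, the counts on a gene in proportion to the size of its library, which was adjusted by the TMM method over all 24 libraries, and are listed in the order of mouse 1, 2 and 3. A gene with 3 counts, taken here as the smallest number read as expression, stood at 0.15 to 0.163 CPM in the 3-month libraries and 0.153 to 0.182 CPM in the 18-month libraries. Protein-coding genes held 97.25 to 98.3% of the counts of each of the 6 libraries. The ovarian markers Foxl2, Inha, Amh and Zp3 were present in all 6. The oviduct and ciliated epithelium list had only 6 of its 16 genes above the filter on low counts, and its summed level was 14.3, 12.2 and 49.8 CPM at 3 months and 9.04, 9.85 and 10.7 CPM at 18 months. Pax2 was the 1 member that was lower (0.734, 0.748 and 0.916 against 0, 0.152 and 0.115 CPM, adjusted p = 0.0387). It did not pass with same-numbered mice taken as pairs (-3.10, adjusted p = 0.0543), and 0 members were lower without any 1 mouse other than 18-month mouse 3, whose removal gave 2. Whether oviduct carried over in dissection has a part in any result was not tested.

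One library stood apart within its age group. In a principal component analysis of the 6 libraries on 14340 genes, the first component held 64.4% of the variance and separated the ages, and 18-month mouse 3 lay at 8.7 on it, between 18-month mice 1 and 2 at 49.5 and 63.2 and the 3-month mice at -44.7, -33.6 and -43. Its Spearman correlations with the 3-month mice were 0.953 to 0.971, against 0.909 to 0.944 for the other 18-month mice. It was therefore closer to the young mice in rank order, and the counts below are given without it where they moved most.

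Of 17403 genes tested with edgeR's quasi-likelihood F test, 818 (4.70%) were higher and 606 (3.48%) were lower at 18 months at a Benjamini-Hochberg adjusted p under 0.05. None of these genes had values that overlapped between the ages. Among all genes tested, 2730 (15.7%) lay higher and 2474 (14.2%) lower in every 18-month mouse than in every 3-month mouse. These shares are the reference for the counts of every gene list below. At least a 2-fold difference was seen in 653 of the genes that rose and 478 of those that fell, and at least a 4-fold difference in 311 and 329. The median log2 fold change was 1.68 among the genes that rose, -2.22 among those that fell and -0.001 over all genes tested. The genes that rose comprised 700 protein-coding genes, 47 variable and 9 constant segments of immunoglobulins, 2 variable and 4 constant segments of T cell receptors and 20 long intergenic noncoding RNAs. Those that fell comprised 531 protein-coding genes and 32 long intergenic noncoding RNAs.

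**Figure D1:**
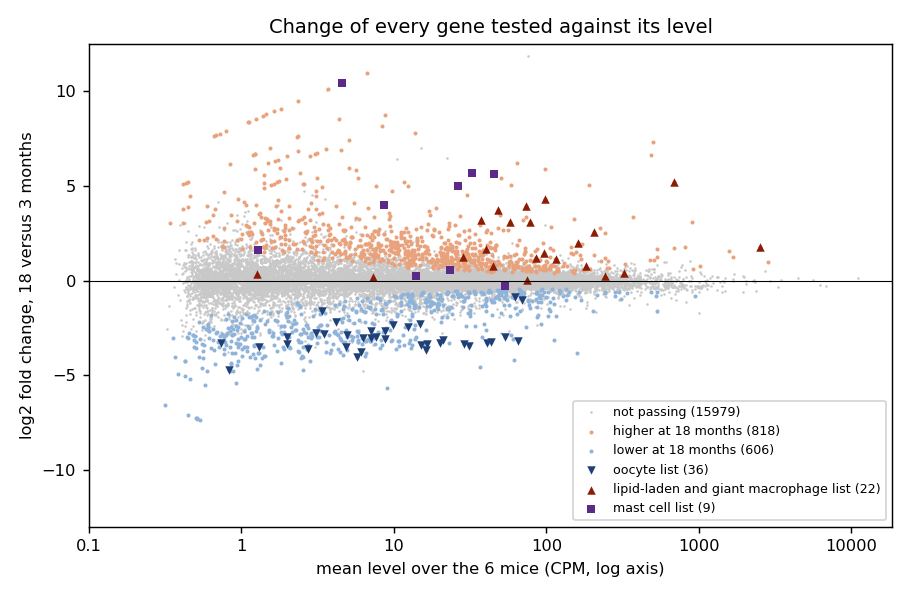
Each point is 1 of the 17403 genes tested, with its mean level over the 6 libraries on the horizontal axis (CPM, log axis) and its log2 fold change at 18 against 3 months on the vertical axis. The 818 genes that rose are orange and the 606 that fell light blue, and larger symbols mark the 36 oocyte genes, all below 0, the 22 genes of lipid-laden and giant macrophages, all above 0, and the 9 mast cell genes.

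The counts moved with single mice. Without 18-month mouse 3, 1783 genes were higher and 1272 lower, and without 18-month mouse 1 or 2, 331 and 409 were higher and 333 and 378 lower. Leaving out 3-month mouse 1, 2 or 3 gave 194, 351 and 224 genes higher and 201, 290 and 268 lower. Same-numbered mice deviated together from the mean of their age, though the labels name no pairing. Treating them as pairs gave 1077 genes higher and 915 lower, and 766 and 567 of the genes called without the pairing were among them. In none of these fits was a gene called in the opposite direction. In the genes that rose, the median log2 ratio to the 3-month mean was 1.54, 1.74 and 0.99 in 18-month mice 1, 2 and 3, so mouse 3 had the smallest rise. In the genes that fell it was -1.40, -1.63 and -1.50, with less difference between the 3 mice. The genes were called on these same mice, which favours agreement among them, so these medians are a description.

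Among the gene lists, the oocyte list had the largest share of its tested genes called. Of 36 genes tested in the oocyte list, 35 fell, 0 rose, and all 36 lay lower in every 18-month mouse than in any 3-month mouse. Their median log2 fold change was -3.09. The summed level of the list was 1075, 1135 and 884 CPM at 3 months and 185, 202 and 183 CPM at 18 months, and the ratio to the 3-month mean was 0.179, 0.196 and 0.177 in the 3 older mice. Mouse 3, which lay nearer the young mice over all genes, did not differ from the others here. Without 3-month mouse 1 the number that fell was 24, and without 18-month mouse 3 it was 36.

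Zp3, on chromosome 5 from 135980099 to 135988624 (GRCm38), encodes a protein of the zona pellucida, the coat around the oocyte to which sperm bind. Its level was 53.1, 66 and 51.8 CPM at 3 months and 4.58, 5.74 and 5.16 CPM at 18 months. The log2 fold change was -3.47 ± 0.16 (SE, 3 mice per age, adjusted p = 3.7e-04), and the 3 older mice lay within a narrow band. Zp2, another zona protein, stood at 72.8, 86.1 and 62.1 CPM against 6.48, 8.88 and 7.11 CPM (adjusted p = 4.7e-04). Oosp1, an oocyte-secreted protein, had mean levels of 13.5 and 1.73 CPM (log2 fold change -2.98 ± 0.34, adjusted p = 0.00397). Transcription of the zona genes in oocytes is known to need FIGLA, a factor that binds E-boxes. The sequences below run from 250 bases before to 50 bases after the start site of Zp3 (chr5:135979855-135980154, plus strand) and Oosp1 (chr19:11691002-11691301, minus strand). They are shown because both genes are called members of the oocyte list, with E-boxes (CANNTG, the same on both strands) in capitals.
Zp3: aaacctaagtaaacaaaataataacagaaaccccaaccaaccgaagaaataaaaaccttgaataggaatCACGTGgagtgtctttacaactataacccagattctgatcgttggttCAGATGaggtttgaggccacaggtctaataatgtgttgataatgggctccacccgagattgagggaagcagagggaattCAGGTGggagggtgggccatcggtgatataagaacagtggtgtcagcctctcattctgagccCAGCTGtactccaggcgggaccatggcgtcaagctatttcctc
Oosp1: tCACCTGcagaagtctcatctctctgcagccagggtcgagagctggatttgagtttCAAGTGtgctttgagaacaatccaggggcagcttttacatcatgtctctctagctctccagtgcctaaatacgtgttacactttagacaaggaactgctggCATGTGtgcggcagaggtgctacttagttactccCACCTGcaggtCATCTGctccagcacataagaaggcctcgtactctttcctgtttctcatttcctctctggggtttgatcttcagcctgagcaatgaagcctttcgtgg

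The window held 4 E-boxes in Zp3 and 5 in Oosp1. An E-box was found in 28 of 33 promoters (84.8%) of the oocyte list, which come from 28 of its 37 genes, and in 72.3% of all 32851 RefSeq promoters (GRCm38.p6) of the same length. These matches describe letters and not binding.

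Gdf9 and Bmp15 encode the growth factors by which the oocyte acts on granulosa cells. Gdf9 stood at 102, 104 and 78.7 CPM at 3 months and 11.1, 14.9 and 10.5 CPM at 18 months (log2 fold change -2.97 ± 0.18, adjusted p = 6.3e-04). Bmp15 stood at 45.2, 39.6 and 24.9 CPM against 4.46, 3.1 and 3.55 CPM (-3.31 ± 0.27, adjusted p = 0.00127). Both are made almost only by oocytes in the ovary, and both fell about as far as the zona genes. H1foo, the linker histone of oocytes, fell from 38.3, 39.5 and 34.4 to 5.29, 4.26 and 3.38 CPM (-3.13 ± 0.19, adjusted p = 6.3e-04). Tle6, a subunit of the maternal complex and the most abundant gene of the list, fell least among those named (87.6, 94.8 and 95.2 against 36.5, 35.9 and 64.9 CPM, -1.03, adjusted p = 0.0375). The 1 member that did not pass was Ddx4, the germ cell RNA helicase VASA, at 4.16, 5.56 and 5.39 against 1.01, 1.27 and 2.75 CPM (-1.60, adjusted p = 0.0558). It passed with the mice paired (-1.69, adjusted p = 0.0324).

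Of 16 genes tested for meiosis and defence of the oocyte genome, 5 fell and 0 rose, but 1 fell without 3-month mouse 1 or 3. Tdrd1, a scaffold of the piRNA pathway that silences transposons, fell from 13.1, 9.83 and 8.75 to 1.9, 0.863 and 0.573 CPM (-3.25 ± 0.44, adjusted p = 0.00693). Mael, of the same pathway, fell by 3.06 on the log2 scale (adjusted p = 0.0204). The others were Syce2, Tex15 and Smc1b, which act in the synaptonemal complex, in recombination and piRNA-guided silencing, and in cohesion. Among 18 genes of KIT and FOXO signalling, by which dormant follicles are held or activated, Amh alone fell and 0 rose, and with the mice paired 2 fell and 1 rose.

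Granulosa cell genes did not move as a group. Of 23 tested, 2 fell and 0 rose, the median log2 fold change was -0.06, and the summed level was 8109, 8135 and 7498 CPM at 3 months and 12144, 6070 and 7144 CPM at 18 months. With the mice paired, 2 rose and 2 fell. Amh (chromosome 10, 80805243 to 80807648), the anti-Müllerian hormone of small growing follicles, was at 384, 276 and 226 CPM at 3 months and 19.3, 10.3 and 34.5 CPM at 18 months. Its log2 fold change was -3.80 ± 0.44 (adjusted p = 0.00418), as large as that of the oocyte genes. Slc18a2, a vesicular monoamine transporter, fell from 266, 209 and 129 to 27.1, 23.8 and 17.8 CPM (-3.14 ± 0.29, adjusted p = 0.00171). Foxl2, the transcription factor that maintains granulosa cell identity, overlapped between the ages at 247, 202 and 311 against 304, 200 and 267 CPM. Inha, the inhibin alpha subunit of growing follicles, overlapped as well, at 1353, 2081 and 1847 against 2991, 1636 and 1763 CPM. Inhbb, an inhibin beta subunit, was at 747 and 670 CPM in 18-month mice 1 and 3 and at 26.7 CPM in mouse 2, against 453 to 603 CPM at 3 months.

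**Figure D2:**
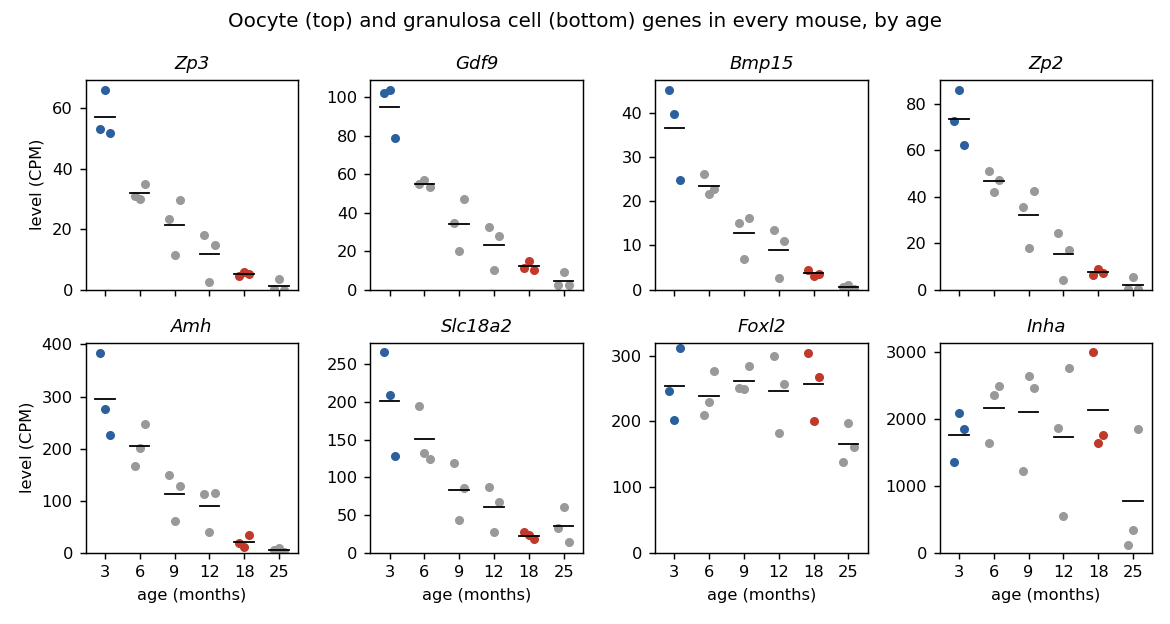
Levels in CPM (vertical axes, from 0) of 4 oocyte genes in the upper row and 4 granulosa cell genes in the lower row, for every mouse of the natural aging series by age in months, with a bar at the mean of 3 mice. The 3-month mice are blue and the 18-month mice red. Zp3, Gdf9, Bmp15, Zp2, Amh and Slc18a2 do not overlap between these ages, while Foxl2 and Inha do.

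Steroid-making cells showed no called change, and the 18-month mice differed among themselves. Of 18 theca and interstitial genes and 15 luteal genes tested, 0 rose and 0 fell, and of 25 cholesterol synthesis genes 0 rose and 0 fell. The summed luteal level was 13639, 8828 and 14758 CPM at 3 months and 5793, 5812 and 16198 CPM at 18 months. The cholesterol synthesis list gave ratios to the 3-month mean of 0.517, 0.31 and 1.7. In both lists 18-month mouse 3 lay above 1 and the other two well below it. Without mouse 3, 8 cholesterol synthesis genes, 4 luteal genes and 3 theca and interstitial genes fell, and 1 theca and interstitial gene rose. Star, which carries cholesterol into mitochondria for steroid synthesis, was at 1437, 371 and 1571 CPM at 3 months and 238, 222 and 1094 CPM at 18 months (adjusted p = 0.405). Cyp11a1, the enzyme that makes pregnenolone, was the most abundant gene of both the theca and the luteal list, at 5901, 5312 and 9043 against 3136, 3832 and 10368 CPM. Cyp19a1, aromatase, was at 16.7, 47.7 and 6.67 against 176, 49.5 and 59.5 CPM, higher in every older mouse but not past the test (2.00 ± 0.74, adjusted p = 0.151). The 14 genes tested of the ovulation response, whose most abundant member was Runx2, and the 12 of the testis pathway, led by Etv5, had 0 calls in either direction. Without 18-month mouse 3, 2 ovulation response genes rose and 2 fell, and 1 testis pathway gene rose and 1 fell.

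Genes of proliferation were lower, though few passed the test without pairing. Among all genes tested, 14.2% lay lower in every 18-month mouse than in every 3-month mouse, and 3.48% fell. Of 42 mitosis genes, 41 lay lower in every 18-month mouse, and 4 fell (Cks1b, Mybl2, Kif23 and Bub1b). With the mice paired, 27 fell. Of 43 DNA replication genes, 35 lay lower in every 18-month mouse, 12 fell, and 26 fell with the mice paired. The median log2 fold change was -1.43 for mitosis and -0.72 for DNA replication. The summed mitosis level was 1833, 1354 and 1502 CPM at 3 months and 755, 261 and 853 CPM at 18 months, with mouse 2 the lowest. Mki67, the proliferation marker, was at 130, 79.6 and 95 against 49.1, 7.87 and 53.1 CPM (adjusted p = 0.178), and its groups did not overlap. Mybl2, a transcription factor of dividing cells, fell from 24.6, 26.7 and 28.1 to 7.26, 5.28 and 13.1 CPM (-1.65 ± 0.31, adjusted p = 0.0215). Mcm6, a subunit of the replicative helicase, fell from 138, 106 and 103 to 67.7, 58.3 and 65 CPM (-0.87 ± 0.14, adjusted p = 0.0118). Leaving out 3-month mouse 1 left 0 mitosis and 1 DNA replication genes called, and leaving out 3-month mouse 3 also left 1 DNA replication gene. Without 18-month mouse 2, 24 mitosis genes fell, and without 18-month mouse 3, 21 mitosis and 24 DNA replication genes.

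Of 42 members of the TGF-beta family and its antagonists, 1 was higher and 5 were lower. Leaving out 18-month mouse 3 gave 3 and 6, while without 3-month mouse 1, 2 or 3 there were 0 higher and 3 lower. Gdf9, Bmp15 and Amh are named above. Smad7, an intracellular inhibitor of the pathway, fell by 0.70 on the log2 scale (adjusted p = 0.0182), from 39.4, 42.4 and 43.2 to 29, 24 and 24.5 CPM. Nog, which encodes the BMP antagonist noggin, fell from 2.59, 1.66 and 1.32 to 0.476, 0.203 and 0.401 CPM (adjusted p = 0.0248). The receptor gene Tgfbr2 rose from 99.9, 104 and 100 to 155, 212 and 149 CPM (0.75 ± 0.15, adjusted p = 0.0255).

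Some of the genes with the largest falls among all protein-coding genes were outside the lists. Col9a2 encodes a chain of the cartilage collagen IX and fell from 79.9, 67.4 and 65.7 to 2.68, 2.44 and 3.9 CPM (-4.57 ± 0.21, adjusted p = 3.7e-04). Gjc3, a connexin, fell from 6.36, 3.95 and 4.48 to 0.119, 0.254 and 0.172 CPM (-4.70 ± 0.41, adjusted p = 0.0017). Slc38a3 encodes a glutamine transporter. It stood at 175, 72.4 and 101 CPM at 3 months and at 7.2, 0.355 and 11.6 CPM at 18 months (-4.20 ± 0.88, adjusted p = 0.0292), so the older mice varied more than for the other 2. Zar1l, a relative of the maternal effect gene Zar1, fell from 5.87, 5.13 and 3.21 to 0.476, 0.355 and 0.0573 CPM (adjusted p = 0.0086).

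Macrophage genes were higher in sum in every older mouse. Of 24 macrophage genes tested, 14 rose and 0 fell, and of 22 genes of lipid-laden and giant macrophages 15 rose and 0 fell. The summed macrophage level was 638, 676 and 715 CPM at 3 months and 2740, 4464 and 2234 CPM at 18 months, a ratio of 4.05, 6.6 and 3.3 to the 3-month mean. The lipid-laden list gave ratios of 3.04, 4.87 and 2.63. Mouse 2 was the highest and mouse 3 the lowest in both. The most abundant genes, such as Lyz2 and Apoe, weigh most in these sums. The median log2 fold change was 1.13 in the macrophage list and 1.57 in the lipid-laden list. Without 3-month mouse 1, 6 macrophage and 7 lipid-laden macrophage genes rose, and without 18-month mouse 3, 18 and 15.

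Gpnmb (chromosome 6, 49036546 to 49070929) encodes a transmembrane glycoprotein of macrophages under lysosomal stress. It was at 15.2, 44.6 and 46 CPM at 3 months and 1195, 1780 and 1031 CPM at 18 months, and its log2 fold change was 5.23 ± 0.49 (adjusted p = 0.00185). Atp6v0d2, a subunit of the lysosomal proton pump that macrophages need to fuse, went from 7, 11.4 and 8.75 to 128, 179 and 107 CPM (3.92 ± 0.26, adjusted p = 7.6e-04). Trem2, a lipid receptor of macrophages, went from 8.56, 15.7 and 12.1 to 102, 132 and 79.2 CPM (3.09 ± 0.28, adjusted p = 0.0017). In all of these the lowest 18-month mouse was above the highest 3-month mouse by a wide margin. Apoe, which carries cholesterol out of macrophages and is also made by steroid cells, was the most abundant gene of the lipid-laden list and rose from 1051, 1170 and 1183 to 3122, 5913 and 2732 CPM (1.78 ± 0.30, adjusted p = 0.014). Lyz2, lysozyme and the most abundant gene of the macrophage list, rose from 159, 160 and 249 to 1339, 2352 and 1162 CPM (3.08 ± 0.33, adjusted p = 0.00314). Per kilobase of exon it went from 144 to 1229 CPM, a higher level than that of Gpnmb at 5.41 and 205 CPM per kilobase. Mmp12, the macrophage elastase, rose from 5.29, 19.6 and 3.31 to 173, 252 and 140 CPM (4.32 ± 0.65, adjusted p = 0.00976).

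Mrc1, Adgre1 and Cd163, markers of resident tissue macrophages, did not pass, but most macrophage genes went the other way. Of 24 macrophage genes tested, 23 had log2 fold changes above 0, and Cd68 was among the 14 that rose. Mrc1, the mannose receptor, was at 29.6, 22.1 and 21.9 against 27.8, 29.2 and 30.9 CPM (adjusted p = 0.362). Adgre1, which encodes F4/80, was at 20.9, 17.4 and 16.7 against 29.6, 32.8 and 22.3 CPM, without overlap (0.61 ± 0.18, adjusted p = 0.0799). Cd163, a scavenger receptor for hemoglobin, was at 3.87, 4.43 and 3.31 against 0.297, 0.558 and 4.7 CPM, low in 18-month mice 1 and 2 and near the young level in mouse 3 (-1.08, adjusted p = 0.503). Without 18-month mouse 3, Adgre1 was called higher (0.76, adjusted p = 0.0183) and Cd163 lower (-3.15, adjusted p = 0.0039), against ranges over all alternatives of 0.0183 to 0.29 and 0.0039 to 0.799. The pan-leukocyte gene Ptprc, CD45, rose from a mean of 13.6 to 53.4 CPM (1.97 ± 0.27, adjusted p = 0.00707).

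The summed level of lysosomal genes was also higher in every older mouse. Among all genes tested, 15.7% lay higher in every 18-month mouse and 4.70% rose. Of 35 lysosomal genes tested, 15 rose and 0 fell, 29 lay higher in every 18-month mouse, the median log2 fold change was 0.57, and 23 rose with the mice paired. Without 3-month mouse 3, 5 rose, and without 18-month mouse 3, 21. Ctss, a cathepsin of antigen-presenting cells, rose from 64.9, 71.4 and 57.8 to 629, 960 and 450 CPM (3.38, adjusted p = 0.00145). Ctsd, the main aspartic protease of lysosomes, rose from 333, 342 and 408 to 1091, 1613 and 1106 CPM (1.80 ± 0.20, adjusted p = 0.00328). Psap, which encodes the saposins, was the most abundant member and rose from 1351, 2172 and 2089 to 3367, 4616 and 3413 CPM (1.01 ± 0.23, adjusted p = 0.0404). Ctsl and Glb1 had log2 fold changes below 0, and Ctsl was at a mean of 971 CPM at 3 months and 694 CPM at 18 months, without passing (-0.49 ± 0.13, adjusted p = 0.0652). Lysosomal genes are known targets of TFEB and TFE3, which bind CACGTG within the CLEAR motif. The Ctsd promoter (chr7:142387778-142388077, minus strand) is shown as an example from a gene that rose in all 3 mice, with CACGTG, which reads the same on both strands, in capitals.
Ctsd: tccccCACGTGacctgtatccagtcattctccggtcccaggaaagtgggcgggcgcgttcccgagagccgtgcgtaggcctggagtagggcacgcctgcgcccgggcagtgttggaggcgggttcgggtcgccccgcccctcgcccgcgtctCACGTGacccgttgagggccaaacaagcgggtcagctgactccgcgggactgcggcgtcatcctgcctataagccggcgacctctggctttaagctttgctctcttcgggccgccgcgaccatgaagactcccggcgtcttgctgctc

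CACGTG, which is also one form of the E-box above, occurred in 9 of 31 promoters (29%) from 27 of the 35 lysosome genes and in 7.15% of all 32851 promoters. In Ctsd it occurred at 2 places. The Zp3 window also holds CACGTG, so a match alone says little about which factor acts on a gene.

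The summed level of mast cell genes was higher in all 3 older mice, least in mouse 3. Of 9 tested, 5 rose and 0 fell, and the summed level was 134, 75 and 81.5 CPM at 3 months and 453, 375 and 149 CPM at 18 months. Cma1, mast cell chymase (chromosome 14, 55941451 to 55944675), was at 1.08, 1.23 and 1.32 CPM at 3 months and 98.2, 78.6 and 14 CPM at 18 months (5.70 ± 0.75, adjusted p = 0.00637). Tpsb2, a tryptase, was at 1.66, 1.12 and 2.49 against 135, 113 and 19.7 CPM (5.64 ± 0.77, adjusted p = 0.00694). Fcer1a, the chain of the IgE receptor that binds IgE, had 0 counts in the 3-month mice and stood at 15, 10.2 and 2.18 CPM at 18 months, at least 58.8-fold higher when the young mice are set to 3 counts per library (adjusted p = 0.0156). Kit, the most abundant gene of the list, is also made by oocytes and theca cells, and overlapped at 93.2, 45.6 and 38.2 against 46, 54.2 and 44.8 CPM. Without 3-month mouse 1, 0 of these genes passed, and without 18-month mouse 3, 8.

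Immunoglobulin genes rose by widely different amounts in the 3 older mice. Of 16 plasma cell genes, 10 rose and 1 fell, and the summed level was 490, 643 and 541 CPM at 3 months and 6622, 1497 and 926 CPM at 18 months. Igha, the constant segment of IgA (chromosome 12, 113254830 to 113260236), rose from 19.5, 5.4 and 7.99 to 538, 317 and 245 CPM (5.05 ± 0.55, adjusted p = 0.00328). Jchain, which joins IgA and IgM into polymers, rose from 5.78, 1.23 and 2.59 to 423, 100 and 58.7 CPM (5.90 ± 0.93, adjusted p = 0.0117). Ighm, the constant segment of IgM and the most abundant gene of the list, went from 7.83, 4.11 and 6.97 to 2786, 189 and 16.7 CPM (7.30 ± 1.77, adjusted p = 0.0473), and mouse 1 alone held most of it. With the mice paired it did not pass (5.27, adjusted p = 0.0871). Derl3 fell, from 74.6, 69.5 and 61.2 to 16.6, 5.99 and 11.6 CPM (-2.60 ± 0.33, adjusted p = 0.00568), and it acts in the disposal of misfolded proteins at the endoplasmic reticulum. Without 3-month mouse 3, 1 plasma cell gene rose, and without 18-month mouse 3, 11.

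Of 15 B cell genes, 5 rose and 1 fell. Cd37, a tetraspanin and the most abundant of them, rose from a mean of 3.75 to 29.7 CPM (2.98 ± 0.33, adjusted p = 0.0035). Cd22, an inhibitory receptor, rose from 2.94, 3.37 and 4.27 to 21.8, 27.8 and 14.1 CPM (2.58 ± 0.30, adjusted p = 0.00427). The 1 that fell was Vpreb3 (4.75, 3.95 and 4.73 against 1.55, 1.67 and 1.6 CPM, adjusted p = 0.0154), a gene of B cell precursors. The summed B cell level was 39.1, 38 and 34.6 CPM at 3 months and 133, 133 and 74.7 CPM at 18 months. Without 3-month mouse 1 or 3, 3 rose, and without 18-month mouse 3, 10.

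T cell genes were higher in mice 1 and 2 than in mouse 3. Of 22 tested, 12 rose and 0 fell, with a summed level of 80.1, 103 and 74.7 CPM at 3 months and 252, 255 and 128 CPM at 18 months. Without 18-month mouse 3, 20 rose, and without 18-month mouse 1 or any 1 of the 3-month mice, 3. Il7r, the receptor of a survival cytokine of lymphocytes, rose from 1.37, 3.9 and 2.19 to 32.2, 38.2 and 24.5 CPM (3.66 ± 0.38, adjusted p = 0.00286). Cd4, the coreceptor of helper T cells, rose from 3.38, 2.3 and 1.68 to 47.5, 45.9 and 12.8 CPM (3.84 ± 0.54, adjusted p = 0.00758). Cd3e, a chain of the T cell receptor complex, rose from 1.17, 0.588 and 0.763 to 7.37, 8.43 and 3.72 CPM (2.93 ± 0.43, adjusted p = 0.0089). Of 14 genes of cytotoxic and NK cells, 5 rose and 0 fell, and the ratio of the summed level to 3 months was 4.88, 4.2 and 1.83. The count was 9 without 18-month mouse 3 and 0 without 18-month mouse 1 or any 1 of the 3-month mice. Eomes, a transcription factor of these cells, rose from 0.294, 0.107 and 0.204 to 3.98, 2.23 and 0.974 CPM (3.51 ± 0.66, adjusted p = 0.0199). Nkg7, a granule protein, was at 0.734, 0.695 and 0.254 against 5.11, 5.23 and 1.03 CPM. It missed the threshold (adjusted p = 0.0523) and passed with the mice paired (2.64, adjusted p = 0.0117).

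Of 16 dendritic cell genes, 2 rose (Irf8 and Wdfy4) and 0 fell, with Bst2 the most abundant, and 5 rose and 2 fell without 18-month mouse 3 while 1 rose without any 1 of the other mice. Of only 4 neutrophil genes above the filter, Csf3r alone rose (4.01, 4.01 and 4.78 against 16.4, 19.6 and 10.1 CPM, 1.83 ± 0.28, adjusted p = 0.0101). In this list 0 rose without 3-month mouse 1, and 2 without 18-month mouse 3. Cxcr1, a chemokine receptor, had 0 counts in each 3-month mouse and 2.85, 3.55 and 2.35 CPM at 18 months, at least 18.8-fold higher with the young mice set to 3 counts per library (adjusted p = 0.00421). The lymphoid tissue organization list had 4 of 13 genes higher and 0 lower, or 7 without 18-month mouse 3 and 0 without 18-month mouse 1 or 2 or 3-month mouse 1 or 3. Its members Ccl19, Ccl21a and Glycam1, which mark lymph node stroma and its vessels, were at 0 in all 6 libraries.

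**Figure D3:**
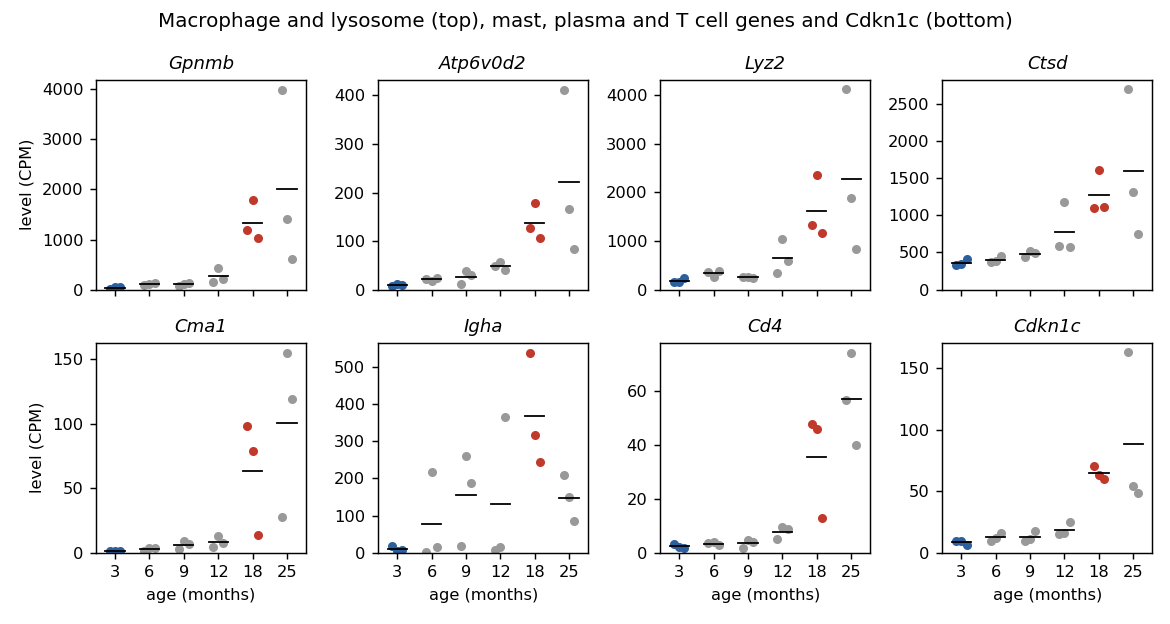
Levels in CPM (vertical axes, from 0) by age in months of Gpnmb, Atp6v0d2, Lyz2 and Ctsd in the upper row and Cma1, Igha, Cd4 and Cdkn1c in the lower row, for every mouse of the natural aging series, with a bar at the mean of 3 mice. In each panel every 18-month mouse (red) lies above every 3-month mouse (blue), and for Cma1 and Cd4 mouse 3 is the lowest of the red points.

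Complement had 12 of 24 genes higher and 1 lower, with a summed level of 2237, 2223 and 1855 CPM at 3 months and 4095, 4925 and 2488 CPM at 18 months. C3, the central component, rose from 76.2, 31.8 and 61.1 to 512, 530 and 143 CPM (2.80 ± 0.53, adjusted p = 0.0211). C4b, of the classical pathway, rose from 37.9, 27.4 and 19.5 to 383, 350 and 85.5 CPM (3.26 ± 0.55, adjusted p = 0.0145). Without 3-month mouse 1 or 3, 1 complement gene rose, and without 18-month mouse 3, 14.

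Antigen presentation by MHC class I had 9 of 21 genes higher and 0 lower, and class II had 3 of 11 higher and 0 lower, or 5 with the mice paired. Leaving out 3-month mouse 1 or 3 gave 1 class I and 0 class II genes, and leaving out 18-month mouse 3 gave 14 and 9. H2-D1, a classical class I heavy chain, rose from 275, 252 and 224 to 824, 1061 and 558 CPM (1.69 ± 0.23, adjusted p = 0.00728), though reads of the near-identical H2 genes may be split between them. Cd74, the invariant chain of class II, was at 275, 311 and 224 against 473, 534 and 302 CPM (0.68 ± 0.23, adjusted p = 0.113), and it rose with the mice paired (0.65, adjusted p = 0.0277). Of 41 interferon-stimulated genes, 4 rose and 0 fell. With the mice paired 9 rose, without 18-month mouse 3, 20, and without 18-month mouse 1 or any 1 of the 3-month mice, 1. Rsad2, the antiviral protein viperin, rose from 5.87, 3.63 and 3.66 to 21.8, 32 and 31.3 CPM (2.68 ± 0.26, adjusted p = 0.00197). Here mouse 3 was as high as mouse 2. Of 9 interferon-inducible Gbp genes tested, Gbp2, Gbp5 and Gbp8 rose, by 1.57, 1.48 and 2.04 on the log2 scale. Gbp2b was at 16.6, 0 and 0.153 CPM at 3 months and 0.654, 0.558 and 0.229 CPM at 18 months, a level set by 3-month mouse 1.

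The shares over all genes tested were 4.70% higher and 3.48% lower. Of 22 chemokine ligands, 1 rose (Cxcl16, from 17.2, 22.3 and 13.5 to 44.4, 63.8 and 33.4 CPM, adjusted p = 0.022), near the share over all genes, and 0 fell, and of 16 receptors 5 rose and 1 fell. Cxcr4, the receptor of CXCL12, was the most abundant receptor and rose from 7.24, 8.92 and 9.51 to 39.6, 39.5 and 22.9 CPM (1.98 ± 0.25, adjusted p = 0.00532). Ackr3, a decoy receptor of the same ligand, fell from 25.8, 22 and 18.3 to 12.3, 10.8 and 7.56 CPM (-1.11 ± 0.22, adjusted p = 0.0258). Leaving out 18-month mouse 3 gave 5 ligands and 8 receptors higher, and leaving out 18-month mouse 1 or 3-month mouse 1 or 3 gave 0 ligands and 2 receptors. Whether ligands and receptors differ as groups was not tested.

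The summed levels by mouse set these lists side by side. The oocyte list had nearly the same ratio in the 3 older mice, while the plasma cell list spread from 1.66 to 11.9 times the 3-month mean.

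**Figure D4:**
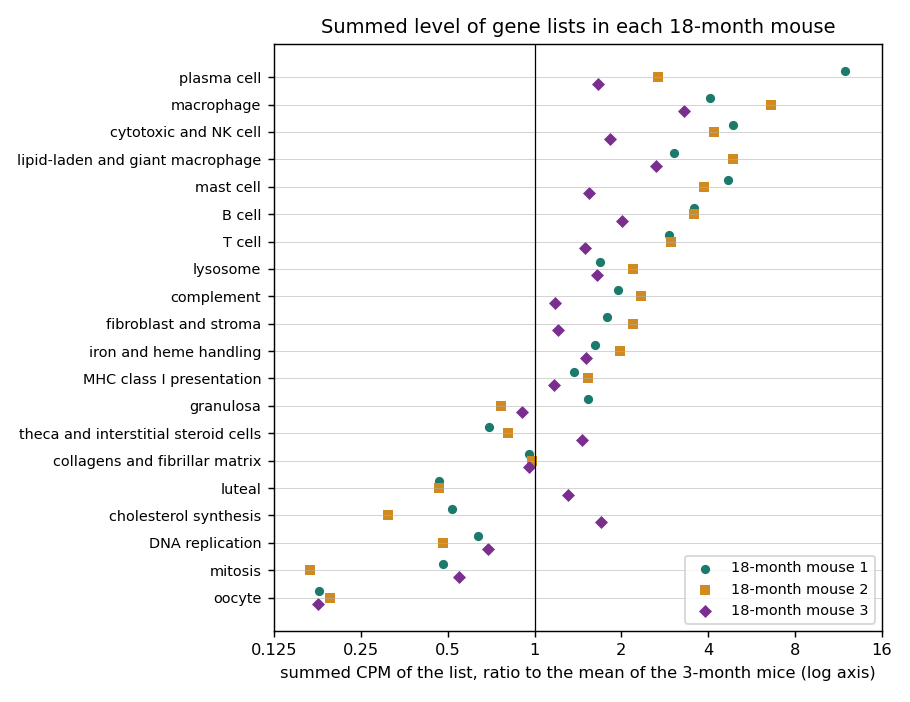
Summed CPM of each of 20 gene lists in each 18-month mouse as a ratio to the mean of the 3-month mice (log axis, with 1 marking the 3-month mean). Mouse 3 is the lowest of the 3 in the plasma, macrophage, NK, mast, B and T cell lists, lies above 1 in the luteal, theca and cholesterol synthesis lists where the other mice lie below, and coincides with them in the oocyte list.

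The SASP list, the secreted inflammatory factors of senescent cells that the study followed, had 6 of 20 genes higher and 0 lower. The study followed this list in these same samples, so it is not independent evidence of its direction. Those that rose were Il1a (a mean of 0.471 against 4.21 CPM, 3.15 ± 0.69, adjusted p = 0.0337), Icam1 (1.56, adjusted p = 0.0279), Plaur (1.52, adjusted p = 0.0214), Tnfrsf1b (0.96, adjusted p = 0.0315), Pdgfa (0.95, adjusted p = 0.0403) and Fgf2 (0.91, adjusted p = 0.0157). They are a cytokine, an adhesion molecule, 2 receptors and 2 growth factors. Icam1 was at 13.7, 16.2 and 12.4 against 42.6, 60 and 23 CPM. Ccl2, a monocyte chemokine, was at 1.17, 14.5 and 1.73 against 4.16, 8.22 and 1.78 CPM, and its groups overlapped. Without 18-month mouse 1, 0 of these genes passed, and without 18-month mouse 3, 10. The summed macrophage level was higher in the same 3 mice, with 14 of 24 genes called, and its part in this list was not tested.

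Over all genes tested, 4.70% rose and 3.48% fell. Of 25 genes of senescence and cell cycle arrest, 1 rose, which is near the share over all genes, and 0 fell, or 3 and 3 without 18-month mouse 3. It was Cdkn1c (chromosome 7, 143458339 to 143461050), an imprinted gene encoding the cyclin-dependent kinase inhibitor p57, from 9.64, 9.46 and 6.31 to 70.8, 63.3 and 60 CPM (2.92 ± 0.18, adjusted p = 6.3e-04). The 3 older mice were close to each other. Cdkn1a, encoding p21, was at 13, 53.4 and 14.4 against 40.5, 44.7 and 45.3 CPM (adjusted p = 0.469), with 3-month mouse 2 above the older mice. Cdkn2a, encoding p16 and ARF, was near 1 CPM at both ages, at 0.538, 2.3 and 0.509 against 0.714, 0.761 and 1.89 CPM. Lmnb1, the nuclear lamin whose loss marks senescent cells, was at 112, 89.2 and 113 against 65.2, 44.2 and 87.4 CPM. Its log2 fold change was -0.69 (adjusted p = 0.125), and with the mice paired it fell (-0.73, adjusted p = 0.0273). Hmgb2, a chromatin protein also lost in senescence and high in dividing cells, was at 123, 94.1 and 102 against 51.9, 25.8 and 63.9 CPM (-1.18, adjusted p = 0.0551), and it fell with the mice paired (-1.27, adjusted p = 0.0212).

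Matrix genes were mixed. Of 45 genes of collagens and fibrillar matrix, 4 rose and 4 fell, and the summed level was 0.953, 0.98 and 0.96 times the 3-month mean. The genes that rose were the proteoglycans Dcn (272, 327 and 353 against 973, 1550 and 670 CPM, 1.73 ± 0.30, adjusted p = 0.0155) and Lum (114, 122 and 106 against 307, 364 and 210 CPM, adjusted p = 0.00931), with Efemp1 and Col6a3. Those that fell were Ccn2, Mfap5, Adamts2 and Fmod. Col1a1, the main chain of fibrillar collagen I, was at 303, 667 and 566 against 517, 354 and 548 CPM, and Col3a1 at 831, 1440 and 1221 against 744, 810 and 1110 CPM (adjusted p = 0.366). Both overlapped between the ages. Over all 40 collagen genes tested, 1 rose (Col6a3) and 3 fell (Col9a2, Col11a1 and Col18a1). In the fibrillar list, 0 genes fell without 3-month mouse 1, 1 rose without 3-month mouse 1 or 3, and 8 fell without 18-month mouse 3.

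Of 26 matrix proteases and inhibitors, Mmp12, Mmp19 and Adam8 rose, and Adamts5 and Mmp23 fell. In this list 0 rose or fell without 3-month mouse 1, and 5 rose and 3 fell without 18-month mouse 3. Adamts5, an aggrecanase, went from 53.1, 58.6 and 37.8 to 12.4, 8.32 and 20.5 CPM (-1.87 ± 0.32, adjusted p = 0.0158). Of 23 basement membrane genes, Col18a1 alone fell, near the 3.48% of all genes tested that fell, and 0 rose. In the basement membrane list, 2 rose and 3 fell without 18-month mouse 3 and 0 fell without 18-month mouse 1 or 2 or 3-month mouse 2 or 3. Of 20 genes of fibroblasts and stroma, 3 rose and 0 fell, with Dcn the most abundant, and 8 rose without 18-month mouse 3 but 0 without 3-month mouse 1 or 3. The 13 smooth muscle genes, led by Acta2, had 0 calls, and of 10 pericyte genes Rgs5 fell (114, 96.7 and 112 against 41, 41.6 and 74.9 CPM, adjusted p = 0.039), but not without any 1 mouse other than 18-month mouse 3.

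The endothelial list had 3 of 17 genes higher and 0 lower, or 5 higher and 1 lower either with the mice paired or without 18-month mouse 3, and 1 higher without 18-month mouse 2 or 3-month mouse 2 or 3. Plvap, the protein of the diaphragms of fenestrated capillaries (chromosome 8, 71497765 to 71511752), rose from 24.7, 23.9 and 22.9 to 94.9, 117 and 110 CPM (2.16 ± 0.12, adjusted p = 4.7e-04). The spread within each age was small, and mouse 3 was no lower than the others. Emcn and Robo4, both of vessel lining, rose by 0.70 and 0.72 on the log2 scale. The summed level of the list was 1.21, 1.21 and 1.2 times the 3-month mean, so Plvap rose more than the list as a whole. The 7 genes tested of lymphatic endothelium, whose most abundant member was Flt4, had 0 calls, and 2 rose without 18-month mouse 3.

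The surface epithelium list had 2 of 19 genes higher, Cldn3 and Muc16, and 0 lower. Without 18-month mouse 3, 13 rose, and without any 1 of the other 5 mice, 0. Muc16, the CA125 mucin of the ovarian surface, went from 9.15, 7.43 and 8.75 to 25.1, 20.5 and 12.1 CPM (1.18 ± 0.28, adjusted p = 0.0426). Of 9 adipocyte genes, Fabp4 alone rose and 0 fell, while 2 rose and 1 fell without 18-month mouse 3. Fabp4, a fatty acid binding protein of adipocytes, macrophages and capillaries, was at 15.3, 3.63 and 5.75 CPM at 3 months and 86.5, 85 and 101 CPM at 18 months (3.45 ± 0.48, adjusted p = 0.00735). Adipoq, which marks fat cells, was at 9.2, 0.0534 and 0.102 against 0.119, 0.66 and 0 CPM, highest in 3-month mouse 1. The 6 erythroid genes tested, led by Hbb-bs, had 0 calls.

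Of 22 genes of iron and heme handling, 4 rose and 0 fell, while 1 rose without 3-month mouse 1 or 3 and 7 without 18-month mouse 3. Slc11a1, an iron exporter of the phagosome, rose from 11.6, 13.4 and 11.3 to 81.2, 113 and 61 CPM (2.80 ± 0.23, adjusted p = 0.00145). Fth1, the ferritin heavy chain and the most abundant of the list, rose from 1091, 1008 and 869 to 2284, 2947 and 1869 CPM (1.25 ± 0.19, adjusted p = 0.011). Ftl1 and Blvrb, the ferritin light chain and biliverdin reductase B, rose as well. A share of 4.70% of all genes tested rose. Of 33 redox enzymes, Gclc, the enzyme that limits glutathione synthesis, rose alone (107, 98 and 77.4 against 152, 195 and 138 CPM, 0.77 ± 0.17, adjusted p = 0.0356), and 0 fell. With the mice paired 5 rose and 3 fell, without 18-month mouse 3, 3 rose and 5 fell, and without any 1 of the other mice 0 rose.

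Of 76 nuclear genes of the respiratory chain, 0 rose and 0 fell, with 68 log2 fold changes below 0 and a median of -0.16, and without 18-month mouse 3, 6 fell. Of 83 cytoplasmic ribosomal protein genes, 82 had log2 fold changes below 0, with a median of -0.31, and Rpl41 alone fell (633 against 426 CPM on average, -0.58 ± 0.13, adjusted p = 0.0327). Many ribosomal protein genes have near-identical pseudogenes, and how reads were split is not given in the sources used here. Of the 13 genes encoded by mitochondrial DNA, 12 did not pass, and mt-Nd3, a subunit of complex I, fell from 18.6, 10.8 and 6.26 to 2.38, 3.4 and 1.78 CPM (-2.24 ± 0.44, adjusted p = 0.0231). This call was lost without 18-month mouse 1 or 3-month mouse 1 or 2.

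A few genes set the 18-month mice apart from every other library of the series and not only from the 3-month mice. The criterion, chosen after the values were seen, was that all 3 lay beyond the other 21 libraries by at least 1.5-fold after 0.2 CPM was added, and 8 genes met it. Gm15446 (chromosome 5, 109923400 to 109943936) was at 0.416, 0.558 and 0.0573 CPM at 18 months and at 13.1 to 23.7 CPM in the other libraries, and the noncoding gene 1010001B22Rik nearby (109995511 to 109996398) had 0 counts at 18 months and 0.292 to 1.8 CPM elsewhere. Gm42031, a noncoding gene (chromosome 8, 85125872 to 85132289), was at 13.8, 13 and 13 CPM at 18 months, with 0 counts at 3 months and 0 to 5.75 CPM elsewhere. The remaining genes were Gm28438 and Gm4316, which were higher, and Gm13301, Gm15247 and mt-Nd3, which were lower. Mice of 25 months did not share these levels, and age and cohort cannot be told apart for them.

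Few genes were called between the 18-month ovary and its neighbouring ages with 3 mice in each group, which does not show that the ages were alike. Against 12 months, 1 of 17268 genes (0.00579%) was called, Fabp4, at a mean of 23.4 CPM at 12 months (log2 fold change 1.94, adjusted p = 0.0399), and this call was lost without any 1 mouse. Across all genes, 1053 had an unadjusted p under 0.05, and DESeq2 called 74 higher and 38 lower. At 25 against 18 months, 1 of 17371 genes (0.00576%) was called, Gm42031, with 2371 genes at an unadjusted p under 0.05 and DESeq2 calls of 465 higher and 174 lower. With all 18 natural aging libraries in one edgeR fit, 127 genes were higher and 61 lower at 25 months.

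The 818 genes that rose had median log2 ratios to 3 months of 0.34, 0.42, 0.87, 1.49 and 2.23 at 6, 9, 12, 18 and 25 months. For the 606 that fell these were -0.41, -0.81, -0.99, -1.49 and -1.63. All ages share the 3-month mice as the reference, and the 18-month values chose the genes, so the medians are a description. Over the genes that rose, the median was 0.97 and 1.00 in 12-month mice 2 and 3, close to the 0.99 of 18-month mouse 3. In the oocyte list the summed level at 12 months was 455, 139 and 348 CPM, so 12-month mouse 2 lay below the 18-month mice. For the macrophage list, 12-month mouse 2 was at 2390 CPM, above 18-month mouse 3 at 2234 CPM. Igha did not follow the order of ages, since single mice of 6 and 12 months stood at 216 and 365 CPM and the 25-month mice at 209, 151 and 84.7 CPM, below every 18-month mouse.

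**Figure D5:**
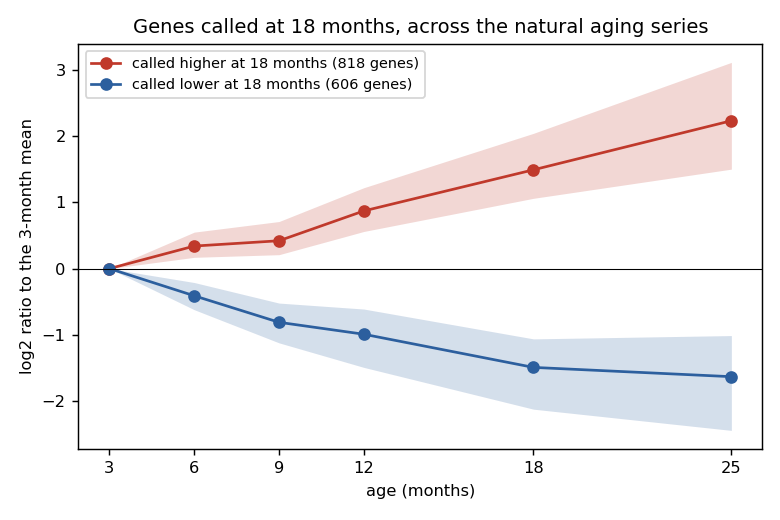
Median log2 ratio to the mean of the 3-month mice (vertical axis) of the 818 genes that rose and the 606 that fell at 18 months, by age in months (horizontal axis), with the interquartile range of the genes. The genes were chosen on the 18-month values, and the medians at 25 months, 2.23 and -1.63, lie beyond those at 18 months, 1.49 and -1.49.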

How the data were processed

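The mRNA of whole ovaries was sequenced by Novogene after extraction with a TRIzol Plus kit. The authors deposited raw read counts per gene, as whole numbers without normalization, for 54532 Ensembl identifiers. GENCODE M21 (GRCm38) lists 54495 of them. The submitters' processing notes name STAR and mm10, without their versions, and the counting program and its use of strand are not given in the sources used here. Reads of overlapping, antisense or near-identical genes may therefore be shared.

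The 18-month and 3-month mice were compared in edgeR 4.0.16 (R 4.3.3) with TMM normalization, the filterByExpr filter, the quasi-likelihood F test, two-sided, and Benjamini-Hochberg adjustment over all genes tested. The 18-month mice were compared with the 12-month and 25-month mice in the same way. The standard error was the log2 fold change divided by the square root of F. The p-values measure the spread between the 3 mice of each age, which the labels name only by number. No replicates agreed within counting noise. Fold bounds and floors use 3 counts per library and cover counting error only.

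The 47 gene lists were written from general knowledge, apart from the SASP list, and both the comparison and the lists were chosen with earlier results of these data known. Named genes were drawn from several sets, and not every member of a set is named. The first set holds the largest rises and falls, up to 15 each way, among called protein-coding genes. These average 2 CPM or more and do not overlap between ages. The other sets are the 4 members of each list with the smallest p and its most abundant member. Markers of cell types and the SASP genes with Lmnb1 were added. Some further members were chosen after their values were seen: the other called members of short lists, Ptprc, Ctsl, Glb1, Inhbb, Cxcr1, Cdkn1a, Cdkn2a, Mki67, Hmgb2, Col1a1, Col3a1 and the ribosomal protein and Gbp genes.

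Same-numbered mice of 3 and 18 months deviated together from the mean of their age, with correlations of 0.23, 0.32 and 0.37 across genes, against -0.3 to 0.03 for other pairs, so a fit with the number as a block is given where it changed a call. The labels do not say what the number stands for. The correlations come from the same values as the calls. Deviations from a mean of 3 mice sum to 0, so the correlations depend on each other, and other matchings of the mice were not fitted. Calls made only with the mice paired are therefore an alternative and not separate evidence. Alternatives were RLE normalization, DESeq2 1.42.0, no filter, at least 10 counts in every mouse, the block, all 18 natural aging libraries in one fit and each mouse left out. The fits were tested on counts simulated with dispersions that edgeR had estimated, so the 2 tools were not compared on equal terms. There a larger share of the DESeq2 calls than of the edgeR calls was false. The edgeR share was also above the level set by the threshold at 18 against 3 and 25 against 18 months. Promoters are those of RefSeq (GRCm38.p6). Tables were made with Python 3.11.15 and pandas 2.3.3. Serum, histology and real-time PCR were not analysed here, and values of some single genes are not reported here.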

Additional observations from a re-analysis of the deposited data

Results flagged for a closer look

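Fabp4 rose more between 3 and 18 months than between 3 and 12 months, with a difference of 1.94 on the log2 scale (edgeR, adjusted p = 0.0399). The call was lost with the replicate block (adjusted p = 0.195), all 18 natural aging libraries in one fit (0.374) and without any 1 mouse (0.0904 to 0.439). It held with RLE normalization (0.0424), no filter (0.00203) and DESeq2 (9.39e-28). The log2 fold change was 1.94 with the block and with all 18 libraries, and 1.85 to 2.02 without any 1 mouse. This is the direct test of 18 against 12 months, in which the shared 3-month mice cancel, and the mean level was 23.4 CPM at 12 months. Gm42031, at 13.8, 13 and 13 CPM at 18 months, differed in its effect between 18 and 25 months, with a log2 fold change of -8.27 at 25 against 18 months (edgeR, adjusted p = 0.0136). The Gm42031 call was lost with the replicate block (0.0726) and without 18-month mouse 1 or 3 or 25-month mouse 2 (0.0889, 0.0559 and 0.236). In those fits the log2 fold change was -8.26 to -8.58. The call held in the other fits, from 4.36e-05 with no filter and 1.03e-12 with DESeq2 to 0.0477 without 18-month mouse 2.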

How the results depend on the processing

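The counts of called genes at 18 against 3 months stayed within 1.5 times of 818 higher and 606 lower with RLE normalization and with all 18 natural aging libraries in one fit. DESeq2 called 1493 higher and 1153 lower, among them 814 and 605 of the genes called by edgeR, and no filter on low counts gave 1471 and 1058. At least 10 counts in every mouse gave 599 and 353, on fewer genes. With same-numbered mice as a replicate block, 915 genes were lower and 1077 higher. Leaving out 1 mouse gave 194 to 1783 genes higher and 201 to 1272 lower, with the lowest counts without 3-month mouse 1 and the highest without 18-month mouse 3, and the cause was not tested. Of the 106 called genes that the text names, 37 were called in all 6 of these fits, among them Zp3, Gdf9, Bmp15, Amh, Gpnmb, Atp6v0d2, Ctsd, Igha, Cd4, Cdkn1c and Plvap, and 106, 73, 62, 58, 49 and 43 were called without 18-month mouse 3, 2 and 1 and 3-month mouse 2, 3 and 1. Beyond the calls given beside the results, pairing changed no call of a named gene. It moved the counts of the other lists by at most 4 genes, and by over 1.5 times only where 1 or 0 genes had been called. Over all alternatives the adjusted p ran from 0.00368 to 0.164 for Ddx4, 0.00111 to 0.16 for Nkg7, 0.0209 to 0.279 for Lmnb1, 0.00151 to 0.162 for Hmgb2, 7.48e-05 to 0.158 for Ighm, 0.0165 to 0.127 for Pax2 and 0.012 to 0.334 for Cd74. Genes with no call turned sign when single mice were left out, with log2 fold changes of -0.97 to 1.68 for Ccl2, -0.59 to 1.07 for Cdkn2a, -0.40 to 0.10 for Col1a1, -0.97 to 0.06 for Cyp11a1, -0.14 to 0.18 for Foxl2, -4.12 to 2.50 for Gbp2b, -0.06 to 0.42 for Inha, -0.67 to 0.36 for Inhbb and -0.54 to 0.19 for Kit. Ccl2 was at 0.24 with the replicate block, and Cdkn2a at -0.00 with at least 10 counts in every mouse.

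At 18 against 12 months, where edgeR called 1 gene higher and 0 lower, DESeq2 called 74 and 38, no filter gave 3 and 2, all 18 libraries in one fit gave 0 and 2, and the replicate block and every fit without 1 mouse gave 0 and 0. At 25 against 18 months, where edgeR called 0 higher and 1 lower, DESeq2 called 465 and 174, no filter gave 30 and 33, all 18 libraries gave 127 and 61, the replicate block gave 0 and 0, and leaving out 1 mouse gave 0 to 3 in each direction. Same-numbered correlations at 18 against 12 months were 0.04, 0.14 and -0.38, within or below the -0.33 to 0.26 of other pairs. At 25 against 18 months they were 0.16, 0.09 and 0.28, against -0.21 to 0.12 for other pairs. Near 0.2 CPM, a level rests on about 3 counts, and with 3 mice per age an exact permutation test cannot go below p = 0.1.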
